A study of Mus musculus with 6 samples.

Results

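The genes described here are those of the interferon response and of antigen presentation, in cultured mouse spermatogonial stem cells given captopril. A list of 35 gene symbols was matched to array probes through the transcript accession of each probe. The list was chosen by way of measured values: it was drawn up after Bst2 and Cd74 had been seen higher with captopril in this same comparison. 40 probes matched, for 33 of the 35 symbols, and all 33 genes entered the comparison, out of 14877 named genes tested. No probe matched Mx1 or Mx2.

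Spermatogonial stem cells are the germline stem cells of the testis. They were taken from dissociated mouse testis and passaged onto mouse embryonic fibroblasts as feeder cells. Cultures received 0.01 M captopril, an inhibitor of angiotensin-converting enzyme, for 24 h, and the control cultures received sterile water, for which the labels also give 0.01 M. Each group has 3 arrays, described in the labels as independent and numbered 2, 3 and 4. Mouse strain and age, and whether separate animals were used, are not given in the sources used here. RNA of the feeder cells is not separated from that of the germ cells, and in such a mixture fewer cells of a type and less RNA per cell cannot be told apart.

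Interferons are secreted alarm signals of viral infection. Type I interferon binds its receptor on the cell surface, and the receptor's kinases activate a complex that includes STAT2 and IRF9 and binds the interferon-stimulated response element (ISRE) in the promoters of target genes. The products block viral entry, translation and budding. They also raise the display of peptides on MHC class I, which the immunoproteasome cuts, the TAP transporter carries and tapasin helps to load. MHC class II, whose invariant chain is CD74, is normally made by professional antigen-presenting cells and is switched on by CIITA. Pluripotent stem cells are known for a weak response to interferon.

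Promoter letters are shown for 5 of the 12 genes of the list whose promoter windows held letters that match the ISRE. Among these 12, Bst2 had the highest difference between captopril and water over 6 arrays, and Ifit1 the lowest. The letters come from RefSeq on GRCm38.p6 and end at the base before the annotated start. The windows are chr8:71537473-71537622 for Bst2, chr12:26456453-26456602 for Rsad2 and chr4:156200819-156200968 for Isg15 (minus strand), and chr19:34640739-34640888 for Ifit1 and chr3:142559894-142560043 for Gbp3 (plus strand). Capitals mark each match to GAAA, any 2 bases and GAAA, or on the other strand to TTTC, any 2 bases and TTTC.
Bst2: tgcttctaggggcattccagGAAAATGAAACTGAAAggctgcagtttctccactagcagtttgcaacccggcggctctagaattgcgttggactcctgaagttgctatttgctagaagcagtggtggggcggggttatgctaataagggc
Rsad2: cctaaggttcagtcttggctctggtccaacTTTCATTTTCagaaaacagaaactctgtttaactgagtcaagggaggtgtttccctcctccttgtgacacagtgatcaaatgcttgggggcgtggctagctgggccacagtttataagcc
Isg15: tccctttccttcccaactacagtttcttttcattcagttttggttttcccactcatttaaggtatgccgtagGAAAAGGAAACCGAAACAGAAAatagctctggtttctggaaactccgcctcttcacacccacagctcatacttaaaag
Ifit1: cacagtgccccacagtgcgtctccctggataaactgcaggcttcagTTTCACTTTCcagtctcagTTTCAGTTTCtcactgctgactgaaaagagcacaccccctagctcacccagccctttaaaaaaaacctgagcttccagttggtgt
Gbp3: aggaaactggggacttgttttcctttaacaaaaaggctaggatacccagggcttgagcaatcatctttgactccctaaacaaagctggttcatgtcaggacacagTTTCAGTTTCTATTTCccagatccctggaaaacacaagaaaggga

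RefSeq windows from 250 bases before to 50 bases after a start were at hand for 26 of the 33 genes. 12 of the 26 held the ISRE letters on either strand, against 3.99% of the 27025 genes with a window (3.44% of 32851 windows). These 12 were B2m, Bst2, Ddx58, Gbp2, Gbp3, Ifih1, Ifit1, Ifit3, Isg15, Oas1a, Rsad2 and Stat2. In Bst2, Isg15 and Gbp3 neighbouring matches overlapped, as the runs of capitals show, and so did those of Oas1a. In Ddx58 and Ifih1 the match lies after the annotated start. The letters TTCNNNGAA, which read alike on both strands and are known as the gamma-activated site, occurred in 4 of the 26 (Bst2, Ifit2, Oas1a and Psmb8), against 9.55% of all genes. In Bst2 that match overlaps the first ISRE match. Having these letters did not fix the sign of a gene's difference. Of the 12 with the ISRE letters, 6 had a log2 fold change (captopril minus water) above 0 and 6 below, with a range of −0.80 to 1.06. Of the 14 with a window but without the letters, 10 lay above 0 and 4 below. Without water replicate 3, described next, 7 of the 12 lay above 0 and 5 below, with a median of 0.08 in place of −0.06, and 13 of the 14 lay above and 1 below.

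The share of spots well above background ranged from 52.2% to 60.5%, and all 6 arrays lie on 1 slide scanned on 1 day. Water replicate 3 differed most from the rest, with correlations of 0.878 to 0.893 over 32400 probes, where the other 5 arrays correlated at 0.970 to 0.991. Log2 fold changes are therefore given with all 6 arrays and without water replicate 3. Slide row 2 held all captopril arrays and water replicate 4, and slide row 1 held water replicates 2 and 3. Of 16 germ cell and undifferentiated spermatogonial markers, 15 were well above background on all 6 arrays, and so were 12 of 12 fibroblast markers. Precision is limited by having 3 arrays a group. The log2 level used below is log2 of the spot signal relative to the 75th percentile of its array.

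The log2 fold changes of the 33 genes lay on both sides of 0. The median log2 fold change was 0.15, with 21 genes above 0 and 12 below, beside a median of −0.03 and 46.8% above 0 over all 14877 genes. Scaling each array by its median in place of its 75th percentile put all genes lower, at a median of −0.33, and the 33 genes at −0.16 with 11 above 0. Relative to the median of all genes, which by definition has as many genes above it as below, 21 of the 33 lay above. The choice between these scalings cannot change that count, because it moves every gene by the same amount. Without water replicate 3 the median was 0.13, with 26 genes above 0, beside 0.07 and 58.5% over all genes. Relative to the median of all genes, 21 of 33 lay above. Within slide row 2, where water replicate 4 is the only water array, the median was 0.18 beside 0.11 over all genes. Leaving out Bst2 and Cd74 gave 0.11 over the other 31 genes with 6 arrays.

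No gene of the group passed the test across all genes. limma called 0 of 14877 genes over 6 arrays (0.0%) at an adjusted p under 0.05, so that 0 of the 33 were called. At an unadjusted p under 0.05, 4 of the 33 were higher and 0 lower, beside 3.33% and 4.93% of all genes. Without water replicate 3 limma called 93 genes (0.625%), none of them among the 33, and at an unadjusted p under 0.05 it found 8 higher and 0 lower, beside 12.1% and 7.01%. Because Bst2 and Cd74 were seen in this same contrast before the list was made, these counts are a description, nothing is read from them, and no p is given for single genes of the list.

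**Figure D1:**
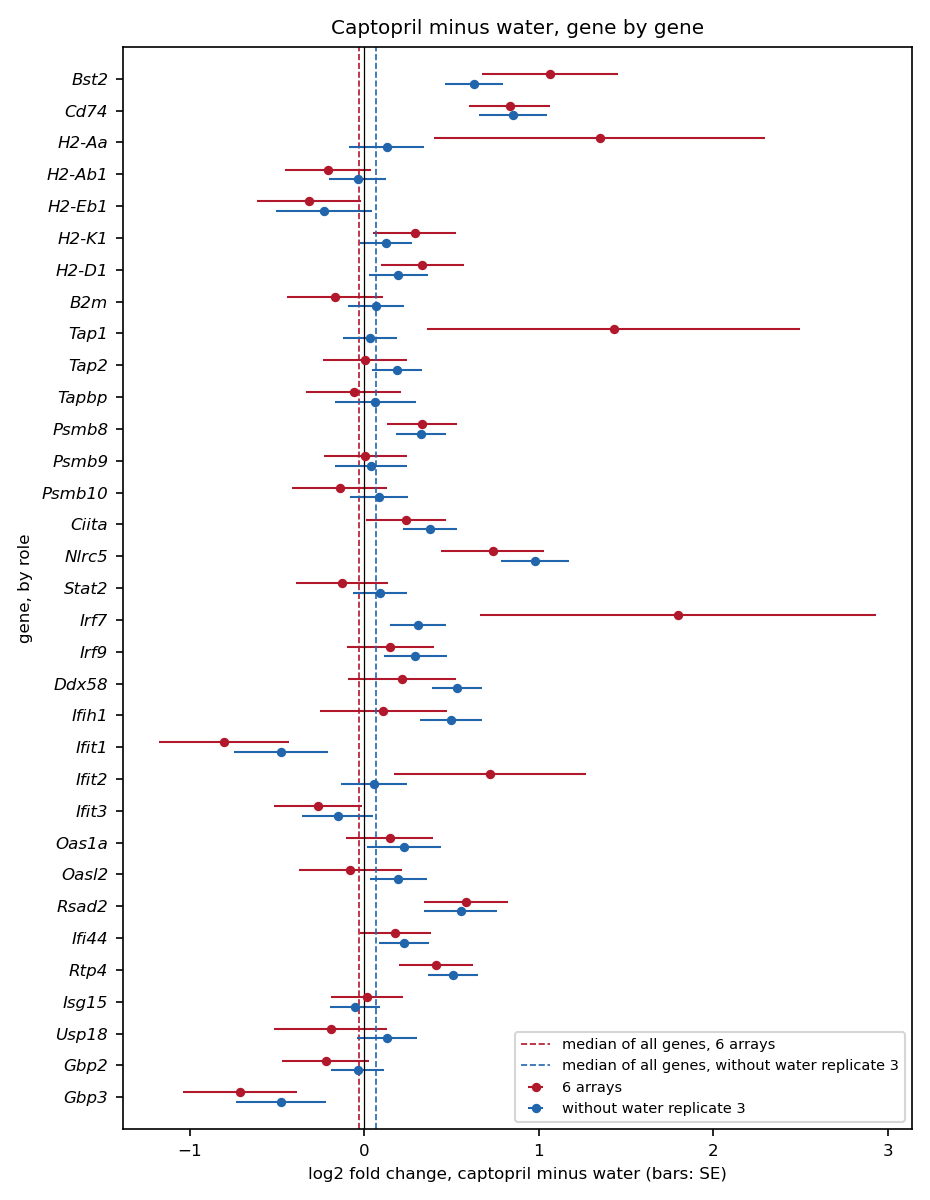
Log2 fold change (captopril minus water, x axis) of each of the 33 genes (y axis, ordered by role), with bars of 1 SE, over 6 arrays and without water replicate 3; dashed lines mark the median of all genes tested. Cd74 lies at 0.83 and 0.85, whereas Irf7 (1.80 and 0.31), Tap1 (1.43 and 0.03), H2-Aa (1.35 and 0.13) and Ifit2 (0.72 and 0.06) have wide bars over 6 arrays and lower values without that array.

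Bst2 (NM_198095), the gene of tetherin, which holds budding virions on the cell surface, was one of the 2 genes that prompted the list. Its log2 levels were 3.43, 3.55 and 3.78 on captopril replicates 2, 3 and 4, against 3.04, 1.66 and 2.88 on water replicates 2, 3 and 4. All captopril arrays lay above all water arrays, and the low value of water replicate 3 set much of the distance. The log2 fold change was 1.06 (SE 0.39), a 2.09-fold difference, over 6 arrays. Without water replicate 3 it was 0.63 (SE 0.17), or 1.55-fold, and within slide row 2 it was 0.71.

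Cd74 (NM_001042605), the invariant chain that guides MHC class II to the endosome, was the other gene that prompted the list. It stood at −2.73, −2.71 and −2.30 on the captopril arrays, against −3.28, −3.38 and −3.58 on the water arrays. These groups did not overlap, and here water replicate 3 lay between the other water arrays. The log2 fold change was 0.83 (SE 0.23), or 1.78-fold, over 6 arrays and 0.85 (SE 0.20) without that array. Over 6 arrays, scaling by the array median gave 0.53, background correction by normexp 0.57 and quantile normalization 0.59.

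The 3 class II chains, which CD74 accompanies, had smaller differences or wide errors. H2-Aa, the alpha chain, had −3.33, −3.43 and −2.81 with captopril, against −3.39, −6.99 and −3.25 in water. The groups overlapped, and water replicate 3 was the one array on which this gene was not well above background. Its value of 1.35 (SE 0.95) became 0.13 (SE 0.21) without that array. H2-Eb1, a beta chain, had −3.42, −3.33 and −2.56 with captopril, against −2.74, −2.61 and −3.01 in water, with overlapping groups and a log2 fold change of −0.32 (SE 0.30), or −0.23 (SE 0.28) without water replicate 3. H2-Ab1, the other beta chain, lay at −0.21 (SE 0.25) and −0.04 (SE 0.17).

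Ciita and Nlrc5 encode the transactivators of class II and of class I genes. Nlrc5 had −0.12, 0.11 and 0.45 on the captopril arrays, against −0.82, −0.11 and −0.86 on the water arrays. Water replicate 3 reached the lowest captopril array, and the other water arrays lay well below it. The log2 fold change was 0.74 (SE 0.29) over 6 arrays and 0.98 (SE 0.20) without water replicate 3, the highest of the 33 genes in that comparison. Ciita had 3.39, 3.52 and 3.70 with captopril, against 3.17, 3.57 and 3.16 in water. Water replicate 3 lay within the captopril range, and the value was 0.24 (SE 0.23), or 0.37 (SE 0.16) without it.

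**Figure D2:**
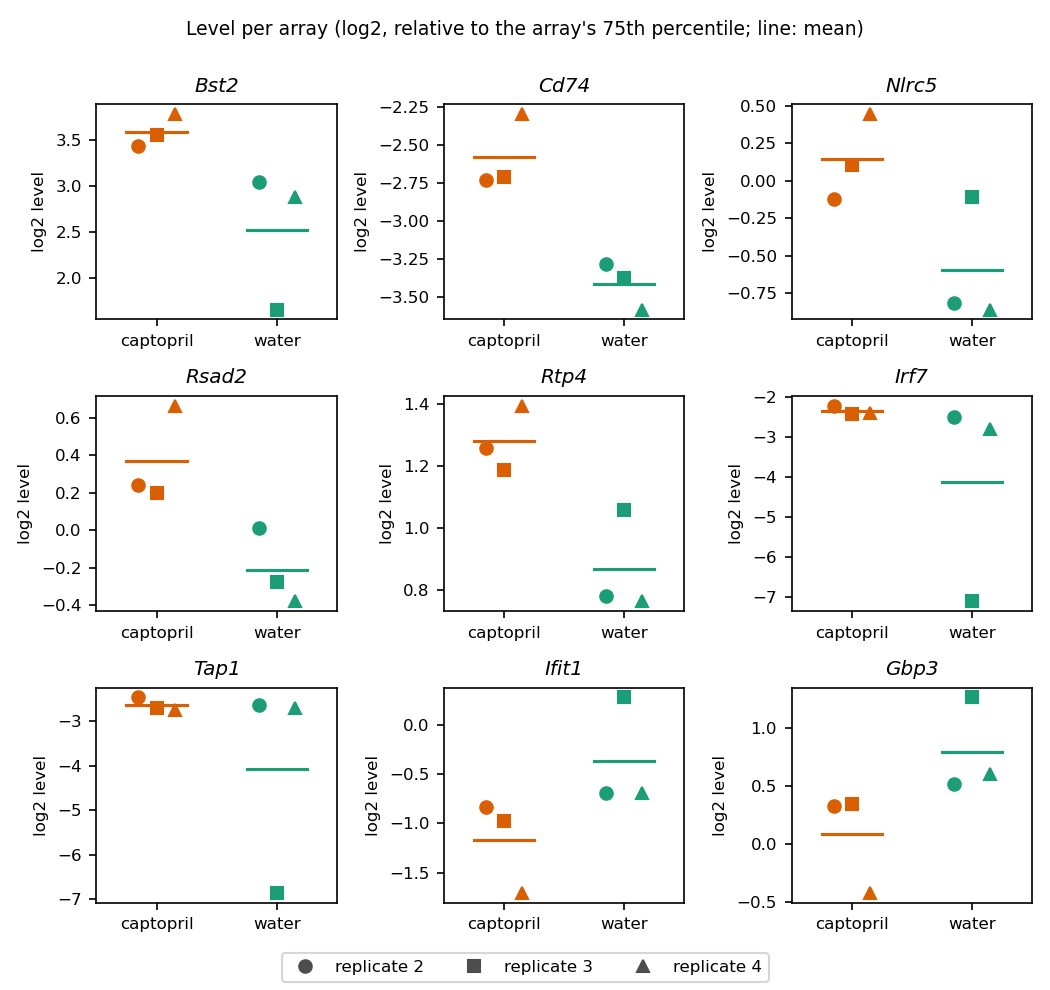
Log2 level (y axis, relative to the array's 75th percentile) of 9 genes on the captopril arrays (left in each panel) and the water arrays (right), with a marker for each replicate and a line at the mean. Irf7 and Tap1 are low on water replicate 3 alone, while Ifit1 and Gbp3 are lower on all captopril arrays than on all water arrays.

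The class I chains differed by little more than their SE or less. H2-D1, a class I heavy chain, had 2.88, 2.56 and 2.52 with captopril, against 2.38, 2.05 and 2.53 in water, and the groups overlapped slightly. The value was 0.33 (SE 0.24), or 0.20 (SE 0.17) without water replicate 3. B2m, the light chain common to class I molecules, had 4.16, 4.28 and 3.94 with captopril, against 4.02, 4.76 and 4.10 in water. Its groups overlapped, and its value was −0.17 (SE 0.27), or 0.07 (SE 0.16) without water replicate 3. H2-K1 lay at 0.29 (SE 0.24) and, without that array, at 0.13 (SE 0.15). Class I genes are near-identical to one another and differ between strains, and cross-hybridisation of their probes was not tested.

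Among the genes of peptide loading, the Tap1 value rested on a single array. Tap1, a subunit of the peptide transporter, had −2.46, −2.71 and −2.74 with captopril, against −2.64, −6.86 and −2.70 in water. It was not well above background on water replicate 3, and the other 5 arrays lay close together. The log2 fold change of 1.43 (SE 1.07) was 0.03 (SE 0.16) without that array. Tap2, the partner subunit, had 0.01 (SE 0.24) and 0.19 (SE 0.14). Tapbp, the gene of tapasin, had 1.75, 1.12 and 1.81 with captopril, against 1.52, 1.87 and 1.48 in water, with overlapping groups. Its value was −0.06 (SE 0.27), and 0.06 (SE 0.23) without water replicate 3.

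Of the immunoproteasome subunits, Psmb8 alone had groups that did not overlap. Psmb8 had 1.33, 1.28 and 1.41 on the captopril arrays, against 1.097, 0.99 and 0.93 on the water arrays. Water replicate 3 lay between the other water arrays. Its value was 0.33 (SE 0.20) over 6 arrays, 0.33 (SE 0.14) without that array and 0.03 with scaling by the array median. Psmb10 had 3.29, 3.44 and 3.62 with captopril, against 3.46, 4.04 and 3.27 in water. Its value of −0.14 (SE 0.27) turned to 0.08 (SE 0.16) without water replicate 3. Psmb9 stood at 0.006 (SE 0.24) and 0.04 (SE 0.20). The RefSeq windows of Tap1 and Psmb9 share 275 of 300 bases on opposite strands, so that these genes start back to back. 10 of the 33 genes lie on chromosome 17, which holds the mouse MHC.

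Signal factors and sensors of the interferon system were measured as well. Irf7, the factor that amplifies the type I interferon response, had −2.22, −2.42 and −2.39 with captopril, against −2.51, −7.12 and −2.80 in water. The groups did not overlap, but on water replicate 3 the gene was not well above background. Its value was 1.80 (SE 1.14) over 6 arrays and 0.31 (SE 0.16) without that array. Stat2 had 1.06, 1.24 and 1.35 with captopril, against 1.12, 1.78 and 1.13 in water, with overlapping groups. Its value of −0.13 (SE 0.26) turned to 0.09 (SE 0.15) without water replicate 3. Irf9, whose product works with STAT2, lay at 0.15 (SE 0.25) and, without that array, at 0.29 (SE 0.18).

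Ddx58 and Ifih1 encode the cytosolic RNA sensors RIG-I and MDA5. Ddx58 had 0.18, 0.15 and 0.33 with captopril, against −0.32, 0.63 and −0.29 in water. Ifih1 had 0.007, 0.07 and 0.27 with captopril, against −0.19, 0.78 and −0.57 in water. In both genes water replicate 3 was the highest of the 6 arrays and the other water arrays were the lowest. Their values were 0.22 (SE 0.31) and 0.11 (SE 0.36) over 6 arrays, and 0.53 (SE 0.14) and 0.50 (SE 0.18) without that array.

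**Figure D3:**
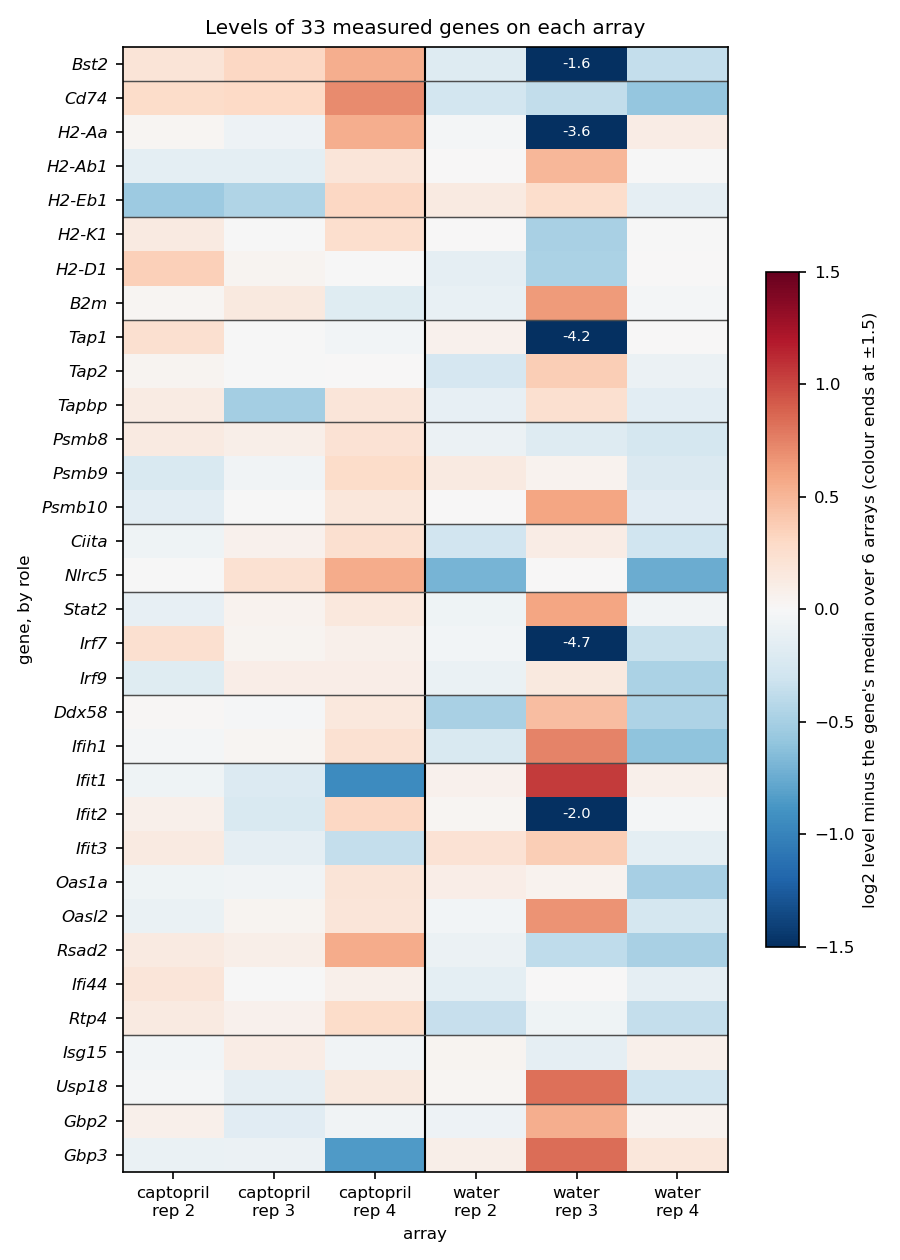
Log2 level of each of the 33 genes (rows, ordered by role) on each array (columns, captopril left and water right), minus the gene's own median over the 6 arrays; red is higher and blue lower, and cells beyond the colour scale carry their value. Water replicate 3 holds the highest value of 15 genes and the lowest of 8, and water replicate 4 the lowest of 12.

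The antiviral effectors lay on both sides of 0. Ifit1, which binds viral RNA that lacks host cap marks, had −0.83, −0.97 and −1.71 with captopril, against −0.69, 0.28 and −0.69 in water. All captopril arrays lay below all water arrays, with a log2 fold change of −0.80 (SE 0.37) over 6 arrays and −0.48 (SE 0.27) without water replicate 3. Its relative Ifit2 had −3.28, −3.59 and −3.05 with captopril, against −3.33, −5.36 and −3.39 in water. These groups overlapped, and Ifit2 was not well above background on water replicate 3, without which its value of 0.72 (SE 0.55) was 0.06 (SE 0.19). Ifit3, the family member that stabilises IFIT1, lay at −0.27 (SE 0.25), and at −0.15 (SE 0.20) without that array.

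Rsad2 and Rtp4 are given in full because of their values. Rsad2, the gene of viperin, which makes a chain-terminating nucleotide, had 0.24, 0.20 and 0.67 on the captopril arrays, against 0.01, −0.28 and −0.38 on the water arrays. Rtp4, an interferon-induced binder of helicases and RNA, had 1.26, 1.19 and 1.39 on the captopril arrays, against 0.78, 1.06 and 0.76 on the water arrays. In neither gene did the groups overlap. Rsad2 stood at 0.58 (SE 0.24) and Rtp4 at 0.41 (SE 0.21), and without water replicate 3 at 0.55 (SE 0.21) and 0.51 (SE 0.14). The RNA-cleavage system genes Oas1a and Oasl2 had 0.15 (SE 0.25) and −0.08 (SE 0.29), and Ifi44 had 0.18 (SE 0.20). With water replicate 3 left out, the values were 0.23 (SE 0.21) for Oas1a, 0.20 (SE 0.16) for Oasl2, which turned sign, and 0.23 (SE 0.14) for Ifi44.

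Isg15, the ubiquitin-like modifier that is among the most strongly induced targets of type I interferon, had a value near 0. It had 2.45, 2.61 and 2.45 with captopril, against 2.54, 2.36 and 2.57 in water, with overlapping groups and a value of 0.01 (SE 0.21), or −0.05 (SE 0.14) without water replicate 3. Usp18, which removes ISG15 from proteins and damps the receptor, had 0.15, 0.04 and 0.32 with captopril, against 0.20, 1.00 and −0.12 in water. Its value of −0.19 (SE 0.32) turned to 0.13 (SE 0.17) without water replicate 3. The captopril values of Usp18 all fell inside the water range.

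The guanylate-binding proteins, which attack the vacuoles of intracellular pathogens, had negative values. Gbp3 had 0.33, 0.35 and −0.42 on the captopril arrays, against 0.52, 1.26 and 0.60 on the water arrays. The groups did not overlap, and the value was −0.71 (SE 0.33) over 6 arrays and −0.48 (SE 0.26) without water replicate 3. Gbp2 had −0.74, −0.98 and −0.87 with captopril, against −0.89, −0.28 and −0.76 in water, with overlap. Its value was −0.22 (SE 0.25), and −0.04 (SE 0.15) without water replicate 3.

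Counted over the list, all captopril arrays lay above all water arrays in 6 of the 33 genes (Bst2, Cd74, Psmb8, Irf7, Rsad2 and Rtp4) and below them in 2 (Ifit1 and Gbp3). Over all genes tested these shares were 10.1% and 11.4%. Without water replicate 3 the counts were 12 above and 2 below, beside 27.2% and 15.7% of all genes. Bst2 and Cd74 are among the genes above, and their values prompted the list. Leaving both out left 31 genes, with 4 above and 2 below over 6 arrays, and 10 above and 2 below without water replicate 3. Scaling by the array median turned the value of 10 genes, all above 0 otherwise over 6 arrays, to below 0. They were Ciita, Ddx58, H2-K1, Ifi44, Ifih1, Irf9, Isg15, Oas1a, Psmb9 and Tap2.

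The highest and lowest values of the 33 genes were spread unevenly over the arrays. Water replicate 3 held the highest value of the 6 arrays in 15 genes and the lowest in 8, beside 54.8% and 24.1% of all genes. H2-Aa, Tap1, Irf7 and Ifit2 were well above background on the other 5 arrays and not on this one, 4 of 33 genes beside 5.01% of all genes tested. Captopril replicate 4 held the highest value in 13 of the 33, beside 21.3% of all genes, and water replicate 4 the lowest in 12, beside 25.6%.

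The wider pathway was taken from lists of other genes. None of the 6 interferon genes on these lists could be tested: Ifnb1, Ifng, Ifna2, Ifna4 and Ifne were not well above background on any array, and Ifnk on fewer than 3. The 6 receptor genes tested had a median log2 fold change of −0.10, with 1 above 0 and 5 below over 6 arrays, and 4 above and 2 below without water replicate 3. Among them Il10rb, a shared chain of the type III interferon receptor, stood at −0.72 (SE 0.31), with all captopril arrays below all water arrays, and at −0.45 (SE 0.21) without water replicate 3. Ifnar1 and Ifngr1, chains of the type I and type II receptors, stood at −0.41 (SE 0.35) and −0.16 (SE 0.29), and Ifnlr1, the type III ligand-binding chain, at 0.35 (SE 0.33). On the other 5 arrays these were −0.10 (SE 0.24) for Ifnar1, 0.10 (SE 0.17) for Ifngr1 and 0.59 (SE 0.27) for Ifnlr1.

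Kinases and factors of the signal had a median of −0.16 over 12 genes, with 3 above 0 and 9 below, and of −0.04 without water replicate 3, with 5 above and 7 below. Jak1, the kinase common to the interferon receptors, stood at −0.46 (SE 0.25), and Ptpn2 and Pias1, which restrain the signal, at −0.48 (SE 0.27) and −0.42 (SE 0.27). The 5-array values were −0.26 (SE 0.14) for Jak1, −0.26 (SE 0.17) for Ptpn2 and −0.17 (SE 0.15) for Pias1. Tyk2 stood at 1.48 (SE 0.90), and 2 of 3 water arrays measured it well above background. Its value without water replicate 3 was 0.31 (SE 0.19). Sensors and adaptors had a median of −0.26 over 14 genes, with 4 above 0 and 10 below, and of −0.16 without that array, with 6 above and 8 below. They included Zbp1, a sensor of Z-form nucleic acids, at −0.40 (SE 0.20), and Ticam1, the adaptor of the TLR3 receptor, at 0.81 (SE 0.43). Tlr7, a receptor for single-stranded RNA, stood at −0.57 (SE 0.34), and Traf3, an adaptor of the RNA sensors, at −1.57 (SE 0.87). The Traf3 value rested on captopril replicate 3, with 0.67, −2.59 and 0.65 on the captopril arrays, against 0.56, 1.69 and 1.18 on the water arrays. Leaving out water replicate 3 gave −0.37 (SE 0.15) for Zbp1, 0.31 (SE 0.17) for Ticam1, −0.21 (SE 0.15) for Tlr7 and −1.29 (SE 0.95) for Traf3.

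The 35 other interferon-stimulated genes tested had a median of −0.11, with 14 above 0 and 21 below, and of 0.15 without water replicate 3, with 22 above 0 and 13 below. The count of genes above 0 thus turned with that array. Irgm1, a GTPase of pathogen defence, stood at −0.43 (SE 0.22), the chemokine gene Cxcl9 at −0.53 (SE 0.28), Trim30a at −1.02 (SE 0.54) and the exonuclease gene Isg20 at 0.35 (SE 0.20). Without that array they stood at −0.32 (SE 0.15) for Irgm1, −0.73 (SE 0.21) for Cxcl9, −0.46 (SE 0.36) for Trim30a and 0.41 (SE 0.14) for Isg20. The 22 other antigen presentation genes tested had a median of 0.10, with 15 above 0 and 7 below, and of 0.14 without that array. Rfxap, a subunit of the RFX complex that binds class II promoters, had the lowest value of that list, at −1.73 (SE 0.59) over 6 arrays and −0.997 (SE 0.17) without water replicate 3. Its log2 levels were −3.70, −3.89 and −4.09 with captopril, against −2.83, −0.69 and −2.97 in water, with no overlap. Erap1, which trims peptides for class I, stood at −1.43 (SE 0.58), H2-M3, a class I-like gene, at −0.60 (SE 0.33) and H2-Oa, which restrains class II loading, at 0.38 (SE 0.22). In the 5-array comparison these were −0.90 (SE 0.44) for Erap1, −0.36 (SE 0.25) for H2-M3 and 0.45 (SE 0.17) for H2-Oa. limma called 0 genes of these 5 lists, with 6 arrays and without water replicate 3.

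**Figure D4:**
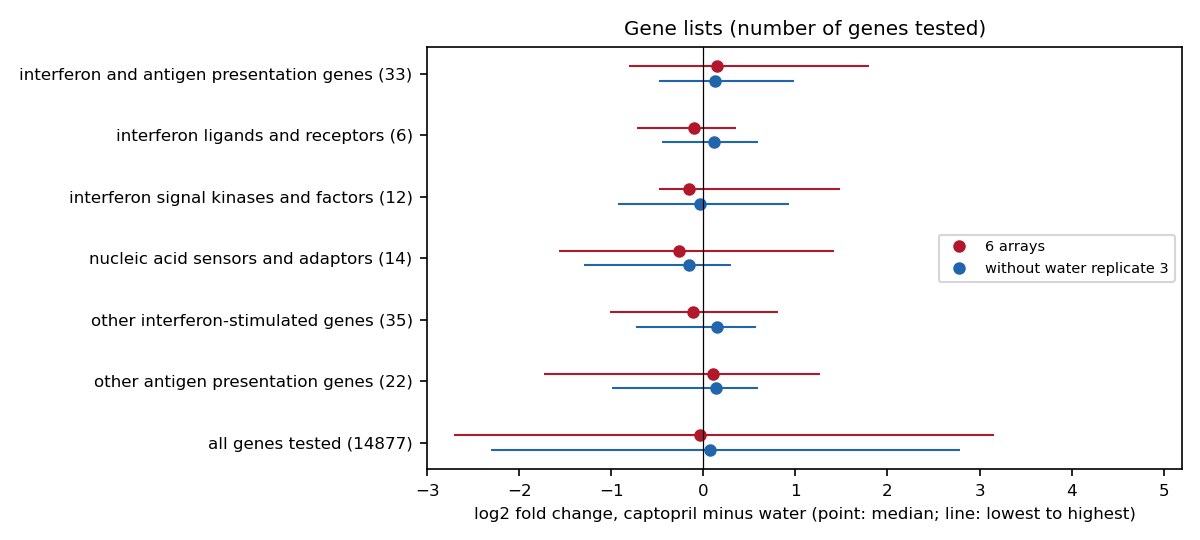
Median (point) and range (line) of the log2 fold change (captopril minus water, x axis) for the 33 genes, for 5 lists of other pathway genes and for all genes tested (y axis, number tested in brackets), over 6 arrays and without water replicate 3. The medians lie between −0.26 and 0.15, and that of the other interferon-stimulated genes is −0.11 over 6 arrays and 0.15 without water replicate 3.

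Cells of the immune system carry several of the transcripts described. Of 15 macrophage and dendritic cell markers with a probe, 10 were well above background on all 6 arrays, and Itgax and Xcr1 on none. The summed signal of these markers, in units of the array's 75th percentile, was 51.0 to 63.8 on the captopril arrays and 45.9 to 72.5 on the water arrays. Most of this sum came from Itgam on every array, so it does not give the level of the markers as a set. The log2 level of Itgam was 5.34 to 5.77 on the captopril arrays and 5.09 to 5.999 on the water arrays. The highest level of any other marker of this list was 1.99, for Lyz2 on water replicate 4. Of the 13 markers tested, 7 had a log2 fold change above 0 and 6 below, with 6 arrays and also without water replicate 3. The values ran in both directions, with 1.21 (SE 0.45) for Ptprc, the pan-leukocyte marker, against −0.57 (SE 0.29) for Adgre1 and −0.98 (SE 0.52) for Fcgr1. Ptprc was near background, since 3 captopril arrays and 1 water array measured it well above background. Of the lymphocyte markers, Cd79b, Cd3e, Cd3d and Cd4 were well above background on all 6 arrays, Cd79a on 5 and Ms4a1 on none. Fibroblast markers summed to 108 to 139 with captopril and to 130 to 235 in water, where 235 is water replicate 3 and the other water arrays had 130 and 141. Of these 12 markers, 6 were lower on all captopril arrays than on all water arrays and 0 higher, beside 11.4% and 10.1% of all genes. Without water replicate 3 these counts were 6 and 3, beside 15.7% and 27.2% of all genes. Germ cell markers summed to 90.0 to 120 with captopril and to 84.0 to 137 in water. The part of these cell types in the values of the 33 genes was not tested.

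**Figure D5:**
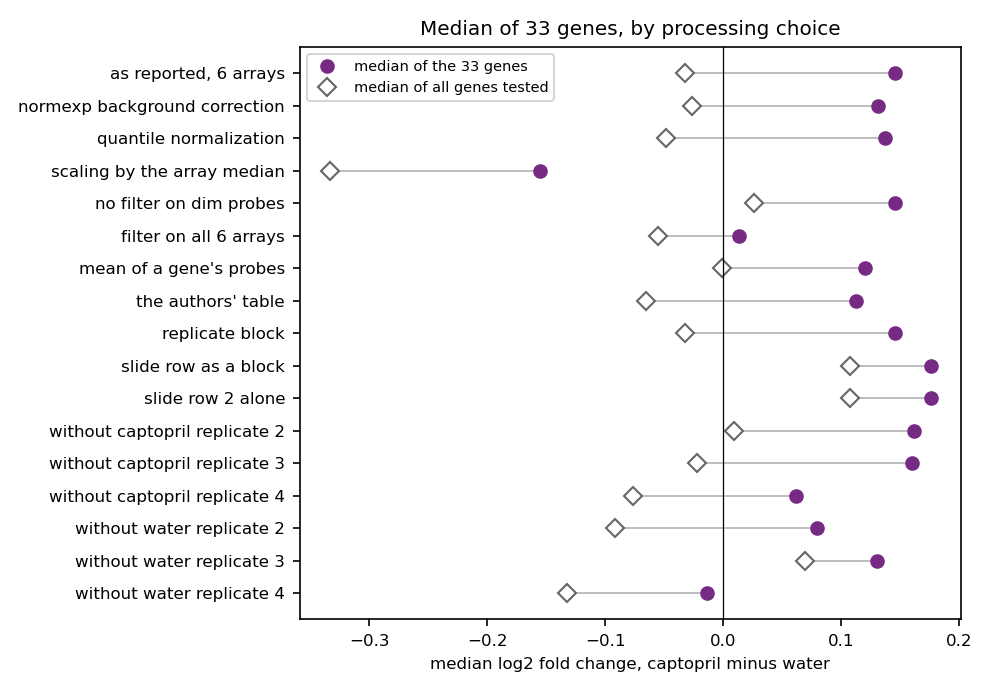
Median log2 fold change (captopril minus water, x axis) of the 33 genes (filled) and of all genes tested (open diamonds) under each processing choice (y axis). The filled point lies right of the diamond in every row, and both lie below 0 with scaling by the array median (−0.16 and −0.33) and without water replicate 4 (−0.01 and −0.13).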

How the data were processed

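RNA was measured on 6 single-colour (Cy3) Agilent arrays. Deposited intensity values are the processed signals of Agilent Feature Extraction. Its version is 11.5.1.1 per the file headers but 10.7 per the submitters' processing notes. The log2 values of the authors' deposited table equal log2 of that signal minus a constant per array (r = 1, 100% within 0.01), with column medians of −3.73, −3.64 and −3.63 for captopril and −3.81, −4.25 and −3.79 for water. That table's further steps are not given in the sources used here, and it served as an alternative.

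Log2 processed signal was centred on the 75th percentile of each array, without control spots and outliers. Spots of 1 probe were averaged. Probes were named through the RefSeq table of GRCm38.p6, which gave 26762 of 55681 probes 1 symbol. A gene was represented by its brightest probe with a value on every array and a signal well above background on 3 or more. The comparison used lmFit and eBayes of limma 3.58.1, under R 4.3.3 (two-sided, Benjamini-Hochberg, threshold 0.05). The code was tested on simulated data. Python 3.11.15, pandas 2.3.3, numpy 2.4.6 and matplotlib 3.10.9 were used.

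The 33 genes and all lists were chosen with earlier results of these data known. Genes named with every array are Bst2, Cd74, and the highest and lowest of each role, to which Rsad2, Rtp4, Traf3 and Rfxap were added after their values were seen; of each pathway list, up to 4 genes with the smallest p over 6 arrays are named. The replicate numbers were not taken as pairs. Deviations of same-numbered arrays from their group means had correlations of −0.02, 0.02 and −0.19. Those of differently numbered arrays had −0.12 to 0.25. With 3 arrays a group such correlations cannot decide whether the cultures were paired. Where the labels do not tell whether cultures came from separate animals, the SE measures the spread between these samples, which may be technical. Alternatives were background correction by normexp (offset 50, on median spot signals), quantile normalization, median scaling, other filters on dim probes, the authors' table, averaging all probes of a gene, blocks by replicate number and slide row, a variance trend, and each array left out. The fit without water replicate 3 combined with another choice was added after the data were seen.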

Additional observations from a re-analysis of the deposited data

How the results depend on the processing

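Over 14877 genes limma called 0 with every single change of processing, and between 0 and 93 with 1 array left out, the 93 without water replicate 3. Without that array it called 39 genes with scaling by the array median, 92 with normexp, 0 with quantile normalization and 87 without captopril replicate 2 as well. Leaving out captopril replicate 3, captopril replicate 4, water replicate 2 or water replicate 4 together with water replicate 3 gave 0 calls each; none of the 33 genes was among them. The median of the 33 genes was −0.16 with scaling by the array median (11 above 0), 0.014 with only probes well above background on all 6 arrays (29 genes), and −0.014 (without water replicate 4) to 0.16 with 1 array left out (16 to 26 above 0, with 16 without water replicate 4). Without water replicate 3 and with scaling by the array median it was −0.0018, and it reached 0.20 without water replicate 3 and captopril replicate 3. The distance from the median of all genes was 0.18 over 6 arrays, 0.060 to 0.18 with 1 array left out, and 0.060 without water replicate 3 under either scaling. Both groups hold the same replicate numbers, so a block by that number cannot change a fold change, only its error. The median thus stayed at 0.15 with 21 genes above 0, and 0 genes were called. Slide row 1 holds only water arrays, so the slide row as a block gives the same fold changes as slide row 2 alone. Both gave 0.18 with 27 genes above 0. Scaling by the array median moves every gene by the same amount, so it cannot change the distance from the median of all genes. The cause of the other shifts was not tested, apart from the 4 genes lost by the stricter filter. Of 788 values of single genes under an alternative, 718 moved by less than the SD between replicates and 70 by more. Of the 70, 33 were in fits that left out water replicate 3 together with another change. The 718 include values that could not move, as under the replicate block, or did not, as under the filters on dim probes. The SD also includes water replicate 3, so Irf7, at 1.80 and at 0.31 without that array, counts among the 718.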

Other observations

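For 7 of the 33 genes the array carries another probe. The other probe of Isg15 differed between captopril and water by −0.32 over 6 arrays, with 1.06, 1.04 and 0.006 on captopril replicates 2, 3 and 4, against 0.87 to 1.20 on the water arrays, so that the difference rested on captopril replicate 4. The other H2-K1 probe gave −0.05, where the probe used gave 0.29, and on water replicate 3 these probes stood at opposite ends of their own ranges, at 3.504 and 2.81. The other H2-Ab1 probe gave −0.16 and the other Oas1a probe 0.28, each with the sign of the probe used. Those of Ifih1 and Nlrc5 were not well above background on any array, and that of Ddx58 on 1 array.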
